A study of Mus musculus with 18 samples.

Results

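The regions described here are the places on the autosomes where the trimethylation of lysine 4 of histone H3 (H3K4me3) was listed as different between T cell acute lymphoblastic leukaemia (T-ALL) and normal double-positive (DP) thymocytes of the mouse. They are all rows on chromosomes 1 to 19 of the authors' H3K4me3 comparison, 21127 regions of the 21402 in that list; the 275 on X and Y were left out. The 4 region lists of the series hold 60531 rows in all. The T-ALL group is 2 H3K4me3 libraries from tumours that overexpress Notch1-IC, the intracellular and active part of the receptor Notch1, and the control group is 2 H3K4me3 libraries from CD4+ CD8+ DP cells of normal thymus. Both groups were prepared in the same way, with 1% formaldehyde for 10 min and micrococcal nuclease, which cuts chromatin to single nucleosomes. The sources used here do not give strain, age, the vector or promoter behind Notch1-IC, or the number of animals in a library.

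H3K4me3 is placed by methyltransferases of the Set1 and MLL families on nucleosomes around active or poised transcription starts, typically on both sides of a nucleosome-poor start site. Most promoters carry a short domain of the mark, and unusually broad domains have been associated with genes that define a cell's identity. DP thymocytes are the stage at which the T cell receptor alpha chain is rearranged, and Notch1 signalling, which drives the earlier stages, is normally low in them; persistent Notch1 activity is a common driver of T-ALL.

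The list gives each region a chromosome, a start, an end and a display colour, green or red. No header or label used here says which colour is the gain in T-ALL, so green and red are kept as names of the 2 classes, and no direction is read from them. In bulk chromatin, a mark on more cells and more of the mark per cell cannot be told apart. There is no value per library, and therefore no spread between replicates, no test between T-ALL and DP cells, and no known depth behind a region. Intervals in parentheses are 95% Clopper-Pearson intervals and cover only the error of counting, and regions that lie together are not independent. Coordinates are mm9 with 1-based starts. No gene annotation of that build was used, so regions are named by position only, and the labelled cell types could not be checked against marker genes. Seen across the other autosomal lists, H3K27me3, the repressive Polycomb mark, has 22579 regions, H3K9ac, an acetylation of active promoters, has 1878, and Notch1 binding in T-ALL has 14541 peaks from 1 library.

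Red regions were more numerous and green regions were wider. The red class held 11075 and the green class 10052 regions, so that 47.6% were green (46.9 to 48.3). Green regions covered 8.12 Mb and red regions 7.48 Mb, which put 52.1% of the listed bases in green. The side of the balance therefore depends on whether regions or bases are counted, and of the regions no narrower than the median of 650 bp, 53.2% were green.

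The typical green region was 700 bp wide (quartiles 550 and 925 bp) and the typical red region 625 bp (525 and 800 bp). The green median was the wider on each of the 19 autosomes. The classes parted most in the tail. Widths of 1000 bp or more were reached by 2044 green regions (20.3%) and 923 red regions (8.33%). Widths of 2000 bp or more were reached by 229 green and 25 red regions, and 3000 bp or more by 45 green and 2 red. By width class the green share went from 34.6% (32.2 to 37.0) under 500 bp and 41.9% (40.7 to 43.0) at 500 to 600 bp, through 50.8% (49.2 to 52.5) at 825 to 1000 bp, to 66.2% (64.1 to 68.2) at 1025 to 1500 bp and 89.2% (84.1 to 93.1) at 2025 to 3000 bp. In the H3K27me3 list the colours stood the other way round, with a median of 650 bp for green and 750 bp for red, and both H3K9ac medians were 625 bp. No test of the lists against each other was made.

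**Figure D1:**
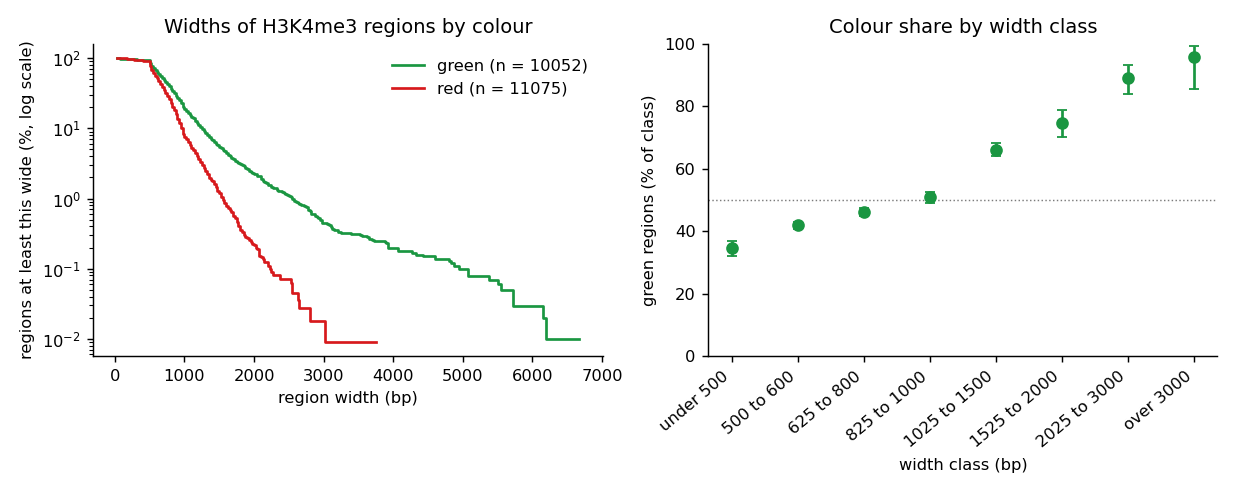
Left, the percentage of green (n = 10052) and red (n = 11075) H3K4me3 regions at least as wide as the value on the x axis (bp), on a log y axis; right, the percentage of regions in each width class that are green, with 95% Clopper-Pearson intervals and a dotted line at 50%. The green curve lies above the red one at 1000 bp (20.3% against 8.33%), and the green share rises from 34.6% under 500 bp to 95.7% over 3000 bp.

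Green H3K9ac was met by 5 of the 10 widest green H3K4me3 regions. The widest, 6675 bp at chr2:11563526-11570200, stood alone, with no other H3K4me3 region within 5 kb, and shared bases with 3 green H3K9ac regions. Next came chr1:185860901-185867100 (6200 bp) and chr4:140161101-140167250 (6150 bp), neither of which met an H3K9ac region. The next 2 were 5725 bp wide, chr3:106286551-106292275 with 2 green H3K9ac regions and chr15:6528726-6534450 on a chromosome outside the H3K9ac list. The region at chr1:173846976-173852525 (5550 bp) stood alone and met 2 green H3K9ac regions, as did chr2:26369301-26374800 (5500 bp), which sits in a cluster of 9 green and 1 red regions. The last 3 of the 10 widest were chr12:110162301-110167675 (5375 bp) in a cluster of 6 green regions, chr3:78980826-78985900 with 1 green H3K9ac region, and chr9:112114901-112119975 (5075 bp each for the last 2). None of these 10 met an H3K27me3 region or a Notch1 peak, which was also true of 9722 of all 10052 green regions (96.7%). The nearest peak lay between 19100 and 897150 bp away, at a median of 153712 bp, against a median of 52.6 kb for all green regions. Of the 8 on chromosomes of the H3K9ac list, 5 met green H3K9ac and 0 met red. Among all green regions on those chromosomes the shares were 7.19% and 6.01%, and among the 30 over 3000 bp 70.0% and 6.67%.

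The broadest red regions were shorter, 2275 to 3750 bp, and 7 of the 10 met an H3K27me3 region, as did 1580 of all 11075 red regions (14.3%). The widest, chr13:120276526-120280275, shared bases with 2 red H3K27me3 regions and 1 Notch1 peak. The region at chr11:120096651-120099675 (3025 bp) met 1 green H3K27me3 region and lay 350 bp from a Notch1 peak, and chr14:76813576-76816375 (2800 bp) met 1 red H3K27me3 region with a peak 1175 bp away. Red H3K27me3 was also met by chr12:88223251-88225900 (2650 bp), by chr9:63867951-63870500 (2550 bp, 2 regions) and by chr3:38784151-38786675 (2525 bp), the last with a Notch1 peak. The region chr19:28752126-28754675 (2550 bp) met H3K27me3 of both colours. The remaining 3, chr10:79611501-79614125 (2625 bp), chr7:71082351-71084725 (2375 bp) and chr5:137041551-137043825 (2275 bp), met no H3K27me3 region and no peak. The chromosome 7 one met 1 red H3K9ac region, while chromosomes 10 and 5 are outside the H3K9ac list. Of the 10 widest red regions, 5 lay on chromosomes of that list. Red H3K27me3 was met by 6 of the 10 and a Notch1 peak by 2. Among all red regions the shares were 13.3% and 17.3%, and among the 22 of 2025 to 3000 bp 50.0% and 18.2%.

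H3K4me3 regions were spread unevenly along the autosomes. Density ran from 6.10 regions per Mb of covered span on chromosome 3 to 15.2 on chromosome 11, followed by 12.3 on chromosome 19 and 11.5 on chromosome 17. Of the 2414 windows of 1 Mb within the covered spans, 378 held no region and 308 held 20 or more, and 385 windows (15.9%) held 50% of all regions. The longest stretch without a region was 7.46 Mb on chromosome 7, from 39057101 to 46517625. Green and red counts per window went together (Pearson r = 0.65 across the 2414 windows). The windows share their libraries, gene density was not measured, and this is a description without a test.

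Red outnumbered green on 14 of the 19 autosomes. The green share was lowest on chromosome 18 at 41.2% (37.1 to 45.3), followed by chromosomes 4 at 41.6% (39.1 to 44.1) and 8 at 41.6% (38.9 to 44.4). These were not separable from chromosome 18 by their intervals, and several further chromosomes were not either, such as chromosome 15 at 43.8% (40.6 to 47.1). It was highest on chromosome 3 at 58.4% (55.2 to 61.6), followed by chromosome 13 at 54.0% (50.5 to 57.5), whose interval overlaps that of chromosome 3. Chromosome 3 was thus the sparsest in regions and the greenest.

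**Figure D2:**
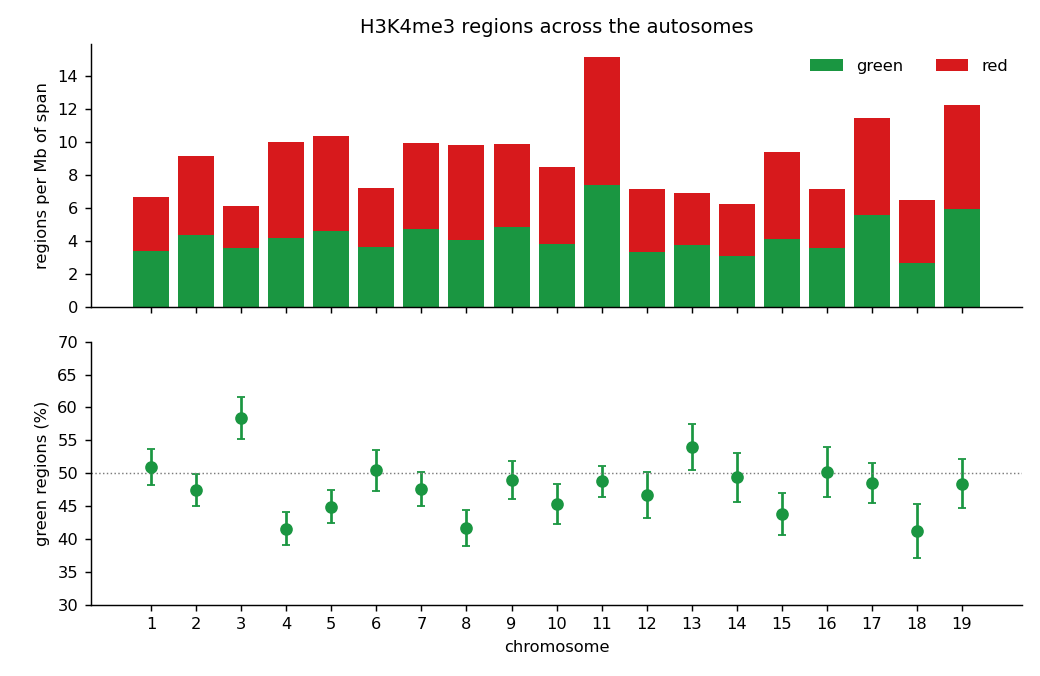
Top, H3K4me3 regions per Mb of covered span on each autosome, stacked by colour; bottom, the percentage of regions that are green with 95% Clopper-Pearson intervals and a dotted line at 50% (y axis from 30 to 70%). Chromosome 11 is the densest at 15.2 regions per Mb, and chromosome 3 has the highest green share at 58.4%.

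In the 308 windows with 20 or more H3K4me3 regions the median number of Notch1 peaks was 21, against 2 over all 2414 windows. The 5 windows richest in red held 46 to 117 peaks and the 5 richest in green 21 to 53, so that the ranges overlapped. On chromosome 10 the window from 79 to 80 Mb held 60 red and 18 green H3K4me3 regions with 107 Notch1 peaks and 86 red H3K27me3 regions, and the next, from 80 to 81 Mb, held 53 red and 21 green with 117 peaks and 68 red H3K27me3 regions. Chromosome 15 from 76 to 77 Mb held 46 red and 21 green regions with 52 peaks, chromosome 11 from 120 to 121 Mb 38 red and 13 green with 46 peaks, and chromosome 12 from 113 to 114 Mb 37 red and 4 green with 53 peaks. The 5 windows richest in green each held 14 to 24 red regions as well. Chromosome 7 from 134 to 135 Mb held 39 green and 24 red regions with 24 peaks, and chromosome 9 from 44 to 45 Mb held 38 green and 14 red with 24 peaks, 14 green H3K9ac regions and 1 red one. Chromosome 11 from 3 to 4 Mb held 37 green and 17 red regions with 27 peaks. Chromosome 19 from 5 to 6 Mb held 36 and 24 with 53 peaks and 25 red H3K27me3 regions, as many peaks as the chromosome 12 window and more than the red windows on chromosomes 11 and 15. Chromosome 10 from 127 to 128 Mb held 32 and 18 with 21 peaks.

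Long stretches of 1 colour also occurred. The longest unbroken runs of neighbouring red regions held 28 each, at chr2:27454401-28695975 over 1.24 Mb and at chr4:153534601-154273450 over 0.739 Mb, and the third held 26 at chr12:113204876-113920150. The longest green run held 22 regions within 0.39 Mb at chr9:44686551-45076325, followed by 19 at chr4:146717376-147243875 and 18 at chr17:21844976-23736950. Among windows with 20 or more regions, 18 were over 80% red and 6 over 80% green.

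At close range green regions crowded together, red regions stood apart, and the colours were often side by side. The median gap between 2 neighbouring regions was 16625 bp when both were green, 35075 bp when both were red and 27000 bp when they differed. Gaps of up to 500 bp were found in 1089 of 5335 green pairs (20.4%), 314 of 6364 red pairs (4.93%) and 1669 of 9409 pairs of unlike colour (17.7%). In all, 217 unlike pairs abutted with no base between them, against 53 green and 23 red pairs. From the single region, the nearest green region to a green one lay at a median of 11.2 kb and the nearest red at 23.6 kb. For a red region the nearest red lay at 30.4 kb and the nearest green at 41.0 kb, but within 1 kb a red region had a green neighbour in 16.9% of cases and a red one in 7.81%.

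**Figure D3:**
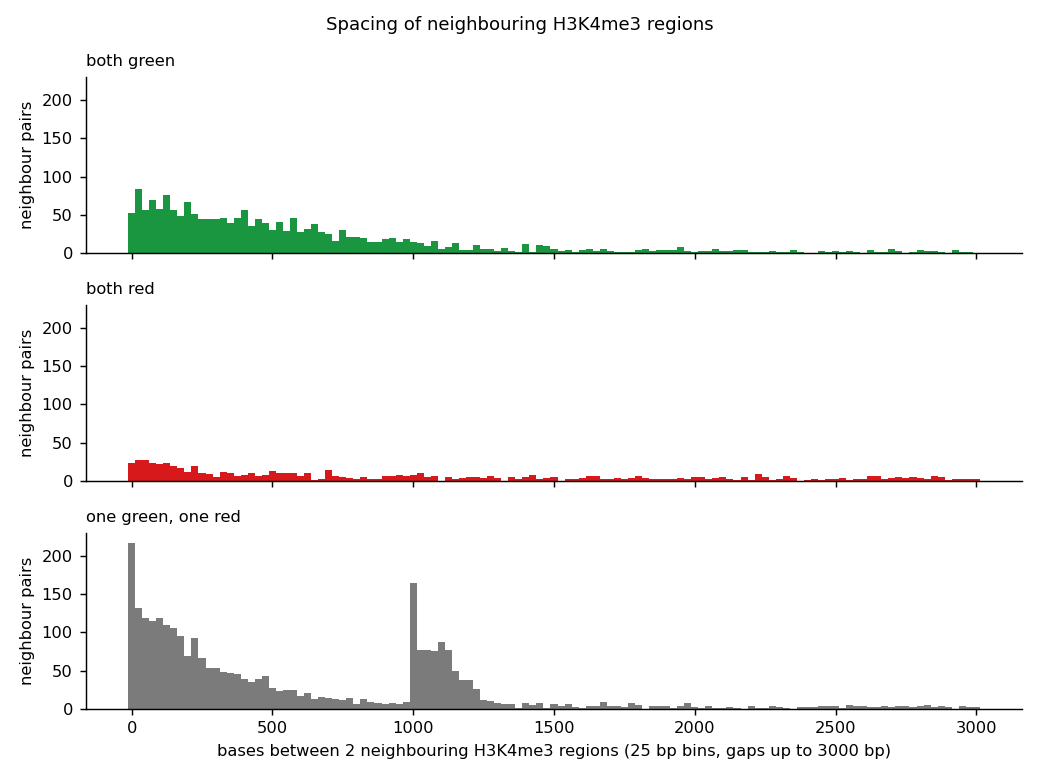
Number of neighbouring H3K4me3 region pairs (y axis) by the bases between them (x axis, 25 bp bins up to 3000 bp), for pairs of green regions, pairs of red regions and pairs of unlike colour. Green pairs fall off evenly with distance, red pairs are few, and unlike pairs pile up at 0 bp (217 pairs) and again from 1000 bp (164 pairs at exactly 1000 bp).

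Joining regions with gaps of at most 5 kb gave 4336 clusters and left 10682 regions (50.6%) alone. Lone regions made up 61.9% of the red class (6850) and 38.1% of the green class (3832). Of the clusters 2470 held both colours, 1227 only green and 639 only red. Clusters were small. There were 3153 of 2 regions and 844 of 3, while 113 held 5 or more regions, and the largest held 28. A red region was in a mixed cluster in 2815 cases and in an all-red one in 1410, and a green region in 3410 and 2810 cases.

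In clusters of 3 the commonest arrangement was a red region between 2 green ones. Of 844 such clusters, 308 ran green, red, green, and 31 ran red, green, red. The order with green outside was the more frequent of these on each of the 19 autosomes, with 7 to 29 clusters per autosome against 0 to 8. With gaps of at most 2 kb the counts were 308 and 15, with gaps of at most 20 kb 282 and 70, and for regions no narrower than the median 48 and 7. All 3 regions were green in 175 clusters and red in 78, and the 4 orders with an end of the other colour held 46 to 75 each. The green, red, green clusters were compact, spanning a median of 2900 bp (quartiles 2475 and 3481 bp), with a red region of 575 bp between green regions of 650 bp and gaps of 325 and 300 bp. The red, green, red clusters spanned 5350 bp, with gaps of 1100 and 1000 bp, and the all-red ones 6062.5 bp. The H3K27me3 list held 194 green, red, green and 56 red, green, red clusters, and the difference between the lists was not tested.

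**Figure D4:**
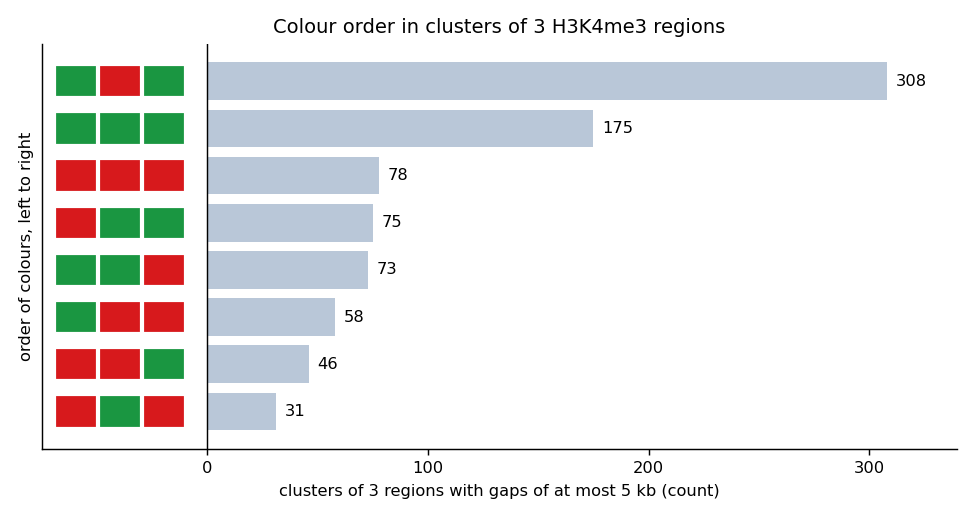
Number of clusters of 3 H3K4me3 regions (bars, x axis) for each left-to-right order of colours (squares at the left), with gaps of at most 5 kb. A red region between 2 green ones is the commonest order with 308 clusters, and a green region between 2 red ones the rarest with 31.

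A few clusters held many regions. The greenest was at chr3:25417876-25453150, with 18 green and 2 red regions of 175 to 1775 bp over 35.3 kb, 1 green H3K27me3 region, no H3K9ac region and no Notch1 peak. The cluster at chr2:26350051-26374800 held 9 green and 1 red regions with 3 green H3K9ac regions and no peak, and chr15:81843001-81865675 held 9 green and 1 red with regions of up to 3725 bp. Clusters with 8 green regions numbered 7. The first 2 of these in genomic order, both all green, were chr2:9793176-9811825, which also held 4 red H3K27me3 regions and 1 Notch1 peak, and chr9:32502626-32517800, with 2 green and 1 red H3K9ac regions. In the last of these, green H3K4me3 made up 11275 bp of 15.2 kb.

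The reddest cluster was also the largest of all, at chr1:90114951-90173725, with 21 red and 7 green H3K4me3 regions over 58.8 kb, 19 red and 2 green H3K27me3 regions and 3 Notch1 peaks. A second mixed cluster of 5 green and 3 red regions was its next neighbour, at chr1:90182101-90204000, with 3 green and 3 red H3K27me3 regions and 2 peaks. Other red clusters were much smaller. There were 6 red regions and no green ones at chr1:74437576-74444275 and at chr5:111693051-111709550, and 6 red and 1 green at chr11:120670351-120686525 with 7 Notch1 peaks and no H3K27me3 region. The first in genomic order of the 9 clusters with 5 red regions, chr1:135252726-135267925, held 3 green and 3 red H3K27me3 regions and 1 peak. Clusters with at least 3 regions of each colour numbered 9. Beside the 2 on chromosome 1, the largest were chr11:52085076-52098625 (5 red, 4 green, with 3 green and 1 red H3K9ac regions), chr5:123581826-123600800, where 4 red and 4 green regions alternated, and chr6:134866676-134879950 (5 green, 3 red).

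Red and green H3K4me3 regions differed in what else was listed at the same place. A Notch1 peak shared bases with 1916 red regions (17.3%, 16.6 to 18.0) and 104 green ones (1.03%, 0.85 to 1.25), and the red share was the higher on each of the 19 autosomes, from 14.3% to 21.8% against 0.19% to 2.06%. The 2 kinds of meeting also differed in position. In red regions the centre of the nearest meeting peak lay a median of 150 bp from the centre of the region and fell inside the region in 81.8% of cases. In green regions it lay 550 bp away and fell inside in 12 of 104 cases (11.5%), the other peaks having their centre outside the region. With 50% of the region covered by peaks, 14.4% of red and 0.11% of green regions remained. The median distance to the nearest peak was 16.9 kb for red and 52.6 kb for green regions.

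No region held more than 2 peaks, and all 34 that held 2 were red. The widest of these were chr19:23209026-23211050 (2025 bp), which also met 1 red H3K27me3 region, and chr10:84849401-84851200 (1800 bp), which met 2. The next 3, chr17:56557901-56559250, chr1:74114401-74115725 and chr16:90143426-90144675, were 1250 to 1350 bp wide and met no H3K27me3 region.

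Red H3K27me3 was met by 1474 red regions (13.3%, 12.7 to 14.0) and 186 green ones (1.85%, 1.60 to 2.13), again with red higher on each of the 19 autosomes. Green H3K27me3 was rare in both, at 1.33% (1.12 to 1.56) of red and 0.61% (0.46 to 0.78) of green regions, and with 50% of the region covered this order turned, to 0.25% of red and 0.40% of green. Among red H3K4me3 regions without any H3K27me3 region, 1355 held a Notch1 peak and 8140 did not. Where only red H3K27me3 was present, 532 held a peak and 901 did not, which is the larger share of the 2. This difference was not tested. The share meeting red H3K27me3 grew with width in red H3K4me3 regions, from 11.7% at 500 to 600 bp to 24.4% at 1025 to 1500 bp, while in green regions it was 2.26% and 1.55% at these widths and 3.85% of the 182 regions of 2025 to 3000 bp. For Notch1 the red shares at these widths were 16.5% and 22.7% and the green ones 0.87% and 1.55%.

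H3K9ac gave another picture, in which green H3K4me3 regions had the larger shares. On the 11 autosomes of the H3K9ac list, 7.19% (6.58 to 7.85) of green and 4.17% (3.71 to 4.67) of red H3K4me3 regions met green H3K9ac, and 6.01% (5.45 to 6.62) and 3.65% (3.21 to 4.12) met red H3K9ac. Green regions had the higher share for both H3K9ac colours on each of the 11 autosomes. With 50% of the H3K4me3 region covered, the green and red shares came to 2.79% and 2.70% for green H3K9ac and to 2.85% and 2.09% for red. Along the width classes, green H3K9ac was met by 3.48% of green H3K4me3 regions of 500 to 600 bp, 12.5% of those of 1025 to 1500 bp, 30.4% of those of 2025 to 3000 bp and 70.0% of the 30 over 3000 bp. Red H3K9ac rose less along the same classes, through 4.49%, 9.51% and 11.2%, and was met by 6.67% of the widest 30. In red H3K4me3 regions the green H3K9ac share also rose, from 2.62% at 500 to 600 bp to 7.52% at 1025 to 1500 bp. At 1525 to 2000 bp it was 16.4% of 61 red regions, against 20.6% of green ones. None of the 13 red regions of 2025 to 3000 bp met green H3K9ac. A wider region has more bases to share, and the shares were not adjusted for this.

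Seen from the short H3K9ac list, most acetylation regions shared bases with an H3K4me3 region. Of 952 green H3K9ac regions, 422 (44.3%) met only green H3K4me3, 250 (26.3%) only red, 40 both and 240 (25.2%) neither. Of 926 red H3K9ac regions, 329 (35.5%) met only green H3K4me3, 194 (21.0%) only red, 56 both and 347 (37.5%) neither. An H3K4me3 region of some colour lay within 1 kb of 88.2% of green and 80.1% of red H3K9ac regions, compared with 9.31% of green and 17.5% of red H3K27me3 regions and 19.0% of Notch1 peaks. In the other direction, 88.5% of green and 68.9% of red H3K4me3 regions met no region of any other list (83.8% and 66.2% on the 11 H3K9ac autosomes).

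The surroundings of a red H3K4me3 region went with what it met. Of the 6850 red regions alone, 19.3% (18.3 to 20.2) held a Notch1 peak, and of the 1410 clustered with red regions only, 27.6% (25.3 to 30.0). Of the 2815 in a cluster with green regions, 7.35% (6.42 to 8.38) did. The lone red share was above that of red regions clustered with green on each of the 19 autosomes, and in each of the 5 width classes compared. At 500 to 600 bp it was 17.4% against 7.88%, and above 1000 bp 27.9% against 12.5%. With a gap of 2 kb the shares were 20.2% and 4.93%, and with 20 kb 17.9% and 13.3%. Red H3K27me3 followed the same order, at 15.4% (14.5 to 16.2) of lone red regions, 20.9% (18.8 to 23.1) of those with red only and 4.55% (3.81 to 5.38) of those with green.

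For H3K9ac the red regions clustered with green had the highest share. Green H3K9ac was met by 2.34% (1.91 to 2.84) of lone red H3K4me3 regions, 2.06% (1.21 to 3.28) of those with red only and 9.56% (8.23 to 11.0) of those with green. For red H3K9ac the shares were 1.5% (1.16 to 1.91), 2.79% (1.78 to 4.16) and 9.22% (7.92 to 10.7). Lone green regions met green H3K9ac in 6.12% (5.21 to 7.15) of cases, green regions in all-green clusters in 10.2% (8.84 to 11.6) and green regions clustered with red in 5.84% (4.89 to 6.90). For red H3K9ac the shares were 4.16% (3.41 to 5.03), 6.87% (5.76 to 8.10) and 7.34% (6.29 to 8.52). The intervals of green regions in all-green clusters and of those clustered with red overlapped for red H3K9ac but not for green H3K9ac. The Notch1 share of green regions was between 0.89% and 1.11% in all 3 settings. Within the green, red, green clusters on the H3K9ac autosomes, the inner red region met green H3K9ac in 30 and red H3K9ac in 28 of 196 clusters (15.3% and 14.3%), and the outer green regions in 26 and 32 of 392 (6.63% and 8.16%). A Notch1 peak was present in 6 of the 308 inner red regions (1.95%), against 30 of the 78 inner regions of all-red clusters (38.5%). Regions are not replicates, and these shares were not tested.

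**Figure D5:**
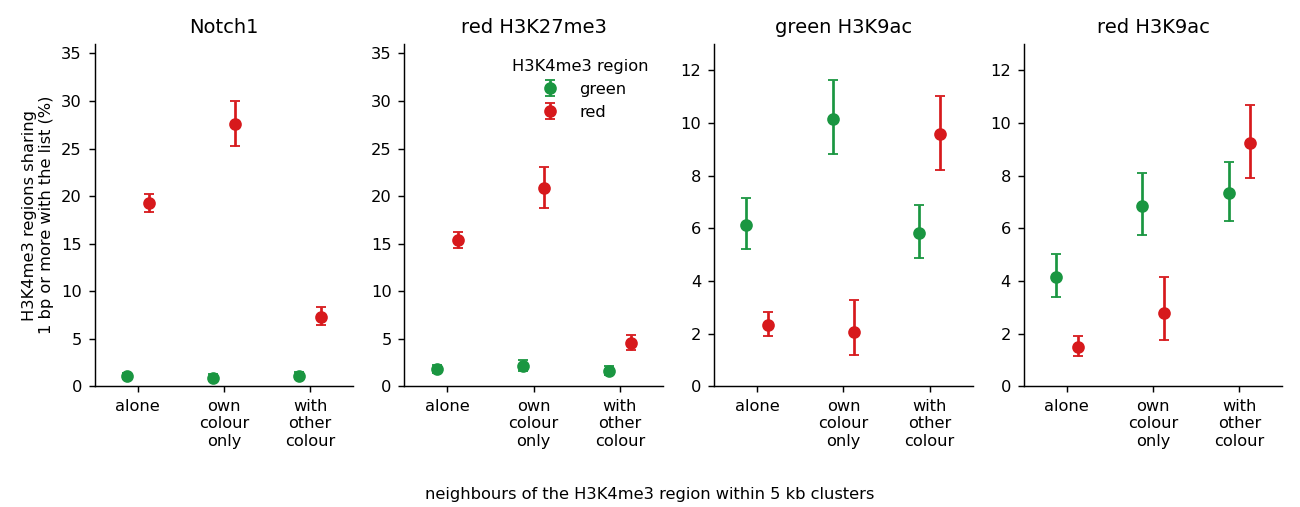
Percentage of green and red H3K4me3 regions (y axis) sharing 1 bp or more with a Notch1 peak, a red H3K27me3 region, a green H3K9ac region or a red H3K9ac region, by the neighbours of the region in 5 kb clusters; bars are 95% Clopper-Pearson intervals, and the H3K9ac panels use the 11 autosomes of that list and another y scale. Red regions with green neighbours have the lowest red shares for Notch1 (7.35%) and red H3K27me3 (4.55%) and the highest for H3K9ac (9.56% and 9.22%).

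On the 11 H3K9ac autosomes 4 H3K4me3 regions shared bases with all 3 other lists, and 2 of them lay together in the genome window on which the authors set their files to open, chr16:30061173-30072152. These were the green regions at 30065251-30066300 and 30066451-30066950, each of which met 1 red H3K27me3 region, 1 green H3K9ac region and the Notch1 peak of the window. The window held 4 H3K4me3 regions in all, in the order red, green, green, green, with gaps of 150 to 400 bp. The nearest H3K4me3 regions outside it were red. They lay 159175 bp to the left of the first and 119950 bp to the right of the last H3K4me3 region in the window. The other 2 regions meeting all 3 lists were red. They were chr3:65462576-65463850 (1275 bp), which met green H3K27me3 and red H3K9ac, and chr11:43342276-43343000 (725 bp), which met red H3K27me3 and red H3K9ac.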

How the data were processed

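Per the file headers, 3 of the 4 deposited BED lists compare Notch1-IC tumours with DP cells for 1 histone mark each, and the fourth holds the authors' Notch1 peaks of T-ALL. Every row of the H3K4me3 list has the same deposited BED score, 1000, which measures nothing. The submitters' processing notes name BWA and the builds NCBIM37 and mm9, and per the labels' protocols reads were 36 bp, or 34 bp after processing. Which tool and thresholds made the regions, how inputs entered and how the 2 replicates were joined is not given in the sources used here. Deposited starts and widths in the H3K4me3 list are multiples of 25 bp.

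Starts were converted to 1-based positions and rows on X and Y were left out. Regions met when they shared at least 1 bp, clusters joined gaps of at most 5 kb, and H3K9ac was compared only on the 11 autosomes of its list. Sums and intervals were computed with Python 3.11.15, pandas 2.3.3 and scipy 1.17.1, and the overlap, distance and cluster steps were tested on simulated data. A count test had been foreseen in case the list held counts; it holds none, so every result is a description. Named regions are the 10 widest per colour, the 5 clusters with most green, most red and most regions of both colours, the 5 windows of 1 Mb richest in each colour, the display window, the regions meeting all 3 other lists and the 5 with most Notch1 peaks; runs and the longest gap were added after their values were seen. The members and these rules were chosen with earlier results of these data known. Gene names and sequences were not used, since the tables at hand are on another build.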

Additional observations from a re-analysis of the deposited data

How the results depend on the processing

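No paired analysis was possible because each list is 1 finished comparison with nothing recorded for single libraries, which also left no replicate to omit and no counts to test. Of 119 alternatives tried on 23 shares, medians and counts, 49 stayed within the counting interval (for counts, within 1.5 times) and 70 did not. Shares of bases, wider regions and other gaps count something else than the main setting, and why values moved was not tested. Leaving out regions under 500 bp was chosen after seeing the data. So was leaving out the 1 Mb windows around the clusters with most red (chromosome 1) and most green regions (chromosome 3), run on spacing and cluster values only, none of which it took outside the limits above; mixed clusters went from 2470 to 2466.

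The green share was 53.2% at or above the median width, 52.1% of bases and 48.6% without regions under 500 bp. It was 44.2% with regions of 1 colour within 1 kb merged, also across a region of the other colour between them. Merging took the green median width to 750 bp. The highest green share of an autosome stayed on chromosome 3, at 64.5% among wide and 55.1% among merged regions, while the lowest moved from chromosome 18 to chromosomes 8 and 4.

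Regions alone made up 56.8% with gaps of 2 kb, 32.7% with 20 kb, 64.8% at or above the median width and 54.7% without regions under 500 bp. All-red clusters numbered 406 with gaps of 2 kb. At or above the median width there were 772 all-green, 234 all-red and 746 mixed clusters, 48 green, red, green and 7 red, green, red ones. The latter were 15 and 70 with 2 and 20 kb, and green, red, green fell to 193 without regions under 500 bp. Notch1 in lone red regions was 17.9% with 20 kb and 22.6% among wide regions. In red regions clustered with green it was 4.93% with 2 kb, 13.3% with 20 kb and 9.07% without regions under 500 bp.

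For meetings with other lists, shares are given for green, then red H3K4me3 regions. With 50% of the region covered they were 0.11% and 14.4% for Notch1, 1.07% and 11.0% for red H3K27me3, 0.40% and 0.25% for green H3K27me3, 2.79% and 2.70% for green H3K9ac, and 2.85% and 2.09% for red H3K9ac. Within 1 kb they were 3.02% and 22.0%, 3.18% and 15.7%, 1.11% and 5.83%, 11.9% and 5.99%, and 10.7% and 5.59%, in the same order. With the other list at or above its median width they were 0.41% and 11.0%, 1.55% and 9.79%, 0.35% and 0.89%, 4.19% and 2.23%, and 3.25% and 2.10%. Among H3K4me3 regions no narrower than the median, red shares were 21.1% for Notch1, 17.2% and 2.20% for red and green H3K27me3 and 4.15% for red H3K9ac, and green shares 9.74% and 7.20% for green and red H3K9ac. Among regions of 500 to 1000 bp, red shares were 18.5% for Notch1, 1.00% for green H3K27me3, 3.25% for green and 2.83% for red H3K9ac, and green shares 5.09% and 5.36% for the latter 2. Without regions under 500 bp, red shares were 18.9% for Notch1, 14.5% for red H3K27me3 and 3.66% for green H3K9ac.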

Other observations

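The spacing of the list has an edge at 1000 bp that depends on colour. Unlike neighbours were 88 at gaps of 750 to 975 bp, 710 at 1000 to 1225 bp and 62 at 1250 to 1475 bp, whereas green pairs numbered 194, 99 and 59 and red pairs 51, 52 and 41 at the same distances. The step was sharp: 9 unlike pairs lay 975 bp apart and 164 lay 1000 bp apart. The H3K27me3 list had the same edge, with 53 unlike pairs at 975 bp and 208 at 1000 bp.

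Most short green regions sat at this edge, and short red regions did so less often. Most regions were 500 bp or wider, with 1054 green and 1595 red regions at exactly 500 bp, yet 548 green and 1037 red regions were narrower, down to 25 bp (45 green and 9 red). Of the green regions under 500 bp, 476 (86.9%) had a red neighbour at 1000 to 1225 bp, compared with 227 of 9504 wider green regions (2.39%). Of the red regions under 500 bp, 323 (31.1%) had a green neighbour at that distance and 222 (21.4%) had one closer, while 400 (38.6%) were alone. Red regions under 500 bp rarely held a Notch1 peak (2.12%, against 18.9% of wider red regions) and met green H3K9ac in 9.09% of cases, compared with 1.21% of green regions under 500 bp. Without the regions under 500 bp, 193 green, red, green and 26 red, green, red clusters were left. How much of the close pairing of colours comes from the way regions were called was not tested.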
